A study of Drosophila melanogaster with 6 samples.

Results

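The genes described here act in the sensing and repair of DNA damage in Drosophila melanogaster. They were taken by name from 37 listed symbols, and each was read from a probe set that the platform annotation gives to exactly 1 gene, the brightest one where a gene had several. Of the 37 genes, 32 had such a probe set, out of 11983 genes measured in all. The other 5, among them mus201 (the nuclease XPG), mus312 (a scaffold of structure-specific nucleases) and phr (a photolyase), had none and were not analysed here.

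Cells that face broken or altered DNA first detect the damage and halt the cycle, through the kinases ATR and ATM and the checkpoint kinases below them. They then use repair routes that suit the lesion: mismatch repair for copying errors, base and nucleotide excision for altered bases, end joining or homologous recombination for breaks, and the Fanconi pathway for crosslinks between the strands. Many of these proteins are also used at replication forks in cells that are not exposed to any damaging agent, so they are commonly studied together with the cell cycle.

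RNA came from GFP-positive mesodermal cells sorted from embryos kept at 29 °C until the turn of stage 11 to stage 12. In the jumu group (twi-GAL4 UAS-2EGFP/UAS-jumu, 3 arrays) the twist driver switched on both GFP and jumu, a forkhead transcription factor gene, in the mesoderm. In the control group (twi-GAL4 UAS-2EGFP, 3 arrays) the same driver switched on GFP alone. All cells of both groups were therefore made to carry GAL4 and GFP, the jumu RNA came from a driven transgene added to the normal gene, and no transgene in the place of UAS-jumu is named for the control. The labels number the replicates without naming separate embryo collections, so the p-values reflect a spread between arrays that may be technical.

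All levels are log2 signals after quantile normalization between the 6 arrays, and a change is the jumu mean minus the control mean, with limma's standard error (SE) or 95% confidence interval. "Rose" is used only of genes with a Benjamini-Hochberg adjusted p under 0.05 over all 18769 probe sets. A group mean under 6, where replicates spread widely, is called near background, and no size is given for a change between means that are both under it.

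The transcript of jumu itself was at 13.62, 13.35 and 13.69 in the jumu arrays against 11.35, 11.56 and 11.44 in the control arrays. Markers of several cell types differed between the groups as well. The counts of markers that rose or fell stand beside 1.61% of all genes called higher and 1.71% called lower. Of 10 measured mesoderm markers 4 rose (htl, rols, sns and lmd), with summed linear signals of 31757 to 34798 in jumu arrays against 22575 to 23080 in control arrays. The early mesoderm gene twi was at 9.90 in jumu arrays against 9.20 in control arrays, so its transcript was present in both groups. The genes tin and Mef2 were not analysed here. Neural transcripts were strong in both groups too, with elav at 12.44 in jumu arrays and 13.32 in control arrays. Of 13 neural markers 7 fell, with sums of 20336 to 20551 in jumu arrays against 33754 to 34663 in control arrays, and of 10 epidermal and tracheal markers 3 fell, with sums of 4895 to 5467 in jumu arrays against 8272 to 8540 in control arrays. The median change was 0.64 for the mesoderm markers and positive in all 5 scalings tried, while it was -0.66 for the neural and -0.77 for the epidermal and tracheal markers and turned to 0.26 and 0.12 when arrays were scaled to poly-A controls. With median centring or hybridization controls 0 markers of these 3 lists passed the test, and with poly-A controls 10 mesoderm, 3 neural and 2 epidermal and tracheal markers passed, all of them higher. Among neural markers nSyb alone was near background in both groups. Of 13 blood cell markers 2 fell and 0 rose, and the sums were alike (28298 to 28709 in jumu arrays against 28321 to 28745 in control arrays). The 2 that fell were PPO1 (11.75 in jumu arrays against 12.68 in control arrays) and Pxn (11.81 against 12.45). Yet 10 of the 13 had a positive change, against 48.9% of all genes. The median change of the 13 was 0.47 and positive in all 5 scalings. In 8 of the 13 every jumu array was above every control array and in 3 every jumu array was below. Over all genes these shares were 16.6% and 17.5%. Among the 13, He, Hml and NimC1 had means of 6.65, 7.99 and 6.25 in jumu arrays against 1.69, 3.13 and 3.66 in control arrays. The gene gcm stands in both the neural and the blood list, and srp in the blood, endoderm and fat body lists. Of 5 endoderm markers hkb fell, of 3 germ line markers bam rose, and of 5 fat body markers, 4 of them near background in both groups, 0 passed. Fewer cells of a type and less RNA per cell cannot be told apart in such bulk samples, and what part these marker differences have in the values below was not tested.

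Repair genes were mostly slightly higher in the jumu arrays, and 2 of the 32, Msh6 and Fancd2, rose, while 0 fell. That is beside 1.61% of all genes called higher and 1.71% called lower. The median log2 change of the 32 was 0.24, against -0.01 over all genes, and 28 had a positive change, against 48.9% of all genes. In 14 members every jumu array was above every control array, and in 0 every jumu array was below. Over all genes these shares were 16.6% and 17.5%. At an unadjusted p under 0.05 there were 11 higher members and 0 lower, beside 10.8% and 11.7% of all genes.

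These counts need to be read against the brightness of the probe sets, since well measured genes separate the groups more often. Both group means were at least 6 for 29 of the 32 members, the exceptions being Blm, Parp1 and agt, and for 6276 genes in all. Among these 29, 26 had a positive change, 13 (44.8%) had no overlap upward and 0 downward, and 2 rose. Among the 6276 genes 49.0% had a positive change, 24.9% had no overlap upward and 26.8% downward, and 2.23% were called higher and 2.88% lower. The median change of these 29 members was 0.24, against -0.01 in those 6276 genes. Most changes were small: for 20 of the 30 members that did not pass the test, the 95% confidence interval of the change stayed within 1 log2 unit of 0 on both sides.

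**Figure D1:**
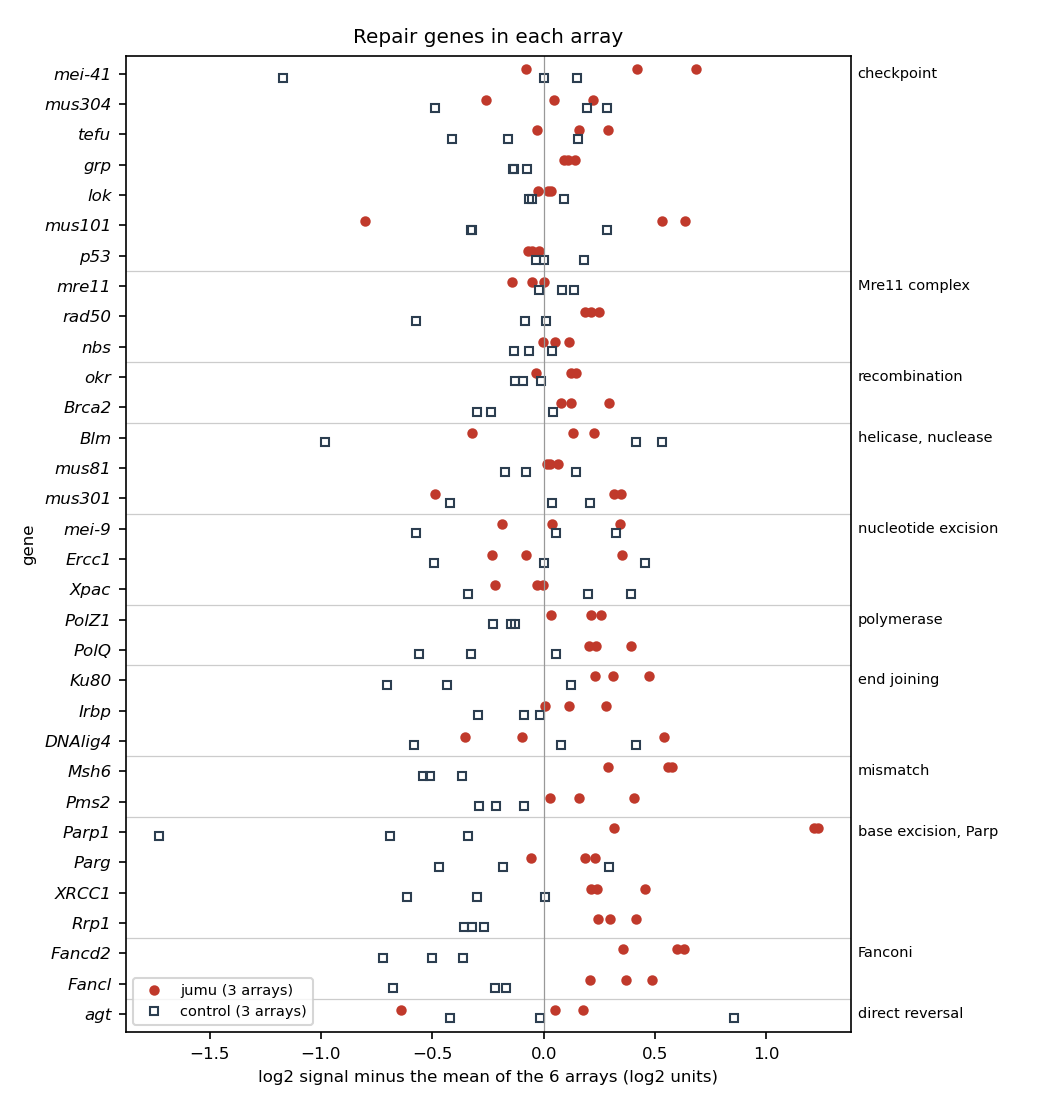
Log2 signal of each of the 32 measured repair genes in each array, minus the mean of that gene over the 6 arrays (log2 units), with jumu arrays as filled red circles above control arrays as open squares, and the repair route at the right. The arrays separate cleanly for Msh6, Rrp1, Fancd2 and Fancl, and mix for all 3 nucleotide excision genes and for all 3 helicase and nuclease genes.

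Mismatch repair and the Fanconi pathway held the 2 genes that rose. Msh6 encodes a subunit of the complex that recognises mispaired bases. Its log2 signal was 9.59, 9.57 and 9.31 in jumu arrays against 8.65, 8.50 and 8.47 in control arrays. The lowest jumu array was thus well above the highest control array. Msh6 rose by 0.95 ± 0.13 (SE, adjusted p = 0.0400, n = 3 arrays per group in limma), which is 1.93-fold. Pms2, which encodes a subunit of the MutL complex that acts after mismatch recognition, stood at 7.50, 7.75 and 7.37 in jumu arrays against 7.06, 7.26 and 7.13 in control arrays. The groups did not overlap, but the change of 0.39 ± 0.14 (SE) did not pass the test (adjusted p = 0.228).

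Fancd2 encodes the protein that is ubiquitinated at stalled forks and crosslinks in the Fanconi pathway. It had log2 signals of 8.92, 8.68 and 8.95 in jumu arrays against 7.82, 7.60 and 7.96 in control arrays. All jumu arrays lay above all control arrays, and Fancd2 rose by 1.06 ± 0.15 (SE, adjusted p = 0.0421 in limma), which is 2.08-fold. Its second probe set was near background in both groups, at 4.50 ± 0.84 in jumu arrays and 3.71 ± 1.94 in control arrays (SD, n = 3 each), and carried no further information on size. Fancl encodes the ubiquitin ligase that modifies Fancd2. It had signals of 7.75, 7.47 and 7.63 in jumu arrays against 7.04, 6.59 and 7.09 in control arrays. The groups did not overlap for this gene either, and its change of 0.71 ± 0.18 (SE) did not pass (adjusted p = 0.125).

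In this fit both calls rested on all 6 arrays. With 1 array removed, whichever it was, the adjusted p of Msh6 ran from 0.107 to 0.148 with a log2 change of 0.90 to 1.04, and that of Fancd2 from 0.105 to 0.151 with a log2 change of 0.96 to 1.14. Median centring also ended both calls (log2 change 1.24, adjusted p = 0.0924 for Msh6, and log2 change 1.33, adjusted p = 0.133 for Fancd2). So did scaling to hybridization controls (adjusted p = 0.0698 for Msh6 and 0.0675 for Fancd2), and an unequal-variance test made for each probe set alone. The mean over both probe sets of Fancd2 did not pass either (log2 change 0.93, adjusted p = 0.456).

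The nearest well measured genes around Msh6 and Fancd2 did not share their change. The genes directly beside Msh6 were not among those measured. Those directly beside Fancd2, Takl1 and CG17270, were near background in both groups. Of the 3 nearest measured protein-coding genes on each side in the RefSeq gene order (Release 6), those of Msh6 with both means at least 6 were Pex3, CG32147, CG7011 and CG6878, with log2 changes of -0.03, -0.23, -0.08 and -0.55. Those of Fancd2 were CG31195, CG17271 and RpS20, with changes of 0.07, -0.07 and 0.00. RpS20 was at 15.60 in both groups. Quantile normalization gives the brightest probe sets nearly equal values in all arrays, so the value for RpS20 carries little information. None of these neighbours passed the test.

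The base excision and single-strand break genes included the member closest to the threshold. Rrp1 encodes the apurinic endonuclease that cuts DNA at sites that have lost a base. Its log2 signal was 12.39, 12.28 and 12.23 in jumu arrays against 11.62, 11.66 and 11.71 in control arrays. The gap between the groups was several times the spread within them, with SDs of 0.09 in jumu arrays and 0.05 in control arrays. The change was 0.64 ± 0.10 (SE, 1.55-fold, 95% confidence interval 0.38 to 0.89) and narrowly missed the threshold (adjusted p = 0.0507). Of its 6 nearest measured neighbours, Ts and lilli were at 0.44 and 0.47, CG3165 at 0.17, and CG9641, CG9643 and Rbp9 at -0.39, -0.13 and -0.24, and none passed.

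XRCC1 encodes a scaffold of single-strand break repair. It stood at 8.68, 8.71 and 8.92 in jumu arrays against 8.16, 7.85 and 8.47 in control arrays, without overlap, a change of 0.60 ± 0.19 (SE, adjusted p = 0.189). Parg encodes the enzyme that removes poly(ADP-ribose) chains, and its arrays overlapped, at 7.78, 8.07 and 8.02 in jumu arrays against 7.37, 8.13 and 7.66 in control arrays. Parp1 (listed as Parp), which encodes the enzyme that builds those chains, was near background in both groups. Its signals were 4.18, 5.08 and 5.10 in jumu arrays against 2.14, 3.53 and 3.18 in control arrays. The groups did not overlap, yet at this level no size can be given, and the gene did not pass (adjusted p = 0.124).

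Both polymerase genes of damage tolerance and break repair were higher in every jumu array than in any control array, without passing the test. PolZ1 (listed as mus205) encodes the catalytic subunit of the translesion polymerase zeta. It was at 8.18, 8.41 and 8.37 in jumu arrays against 8.02, 8.01 and 7.92 in control arrays, a change of 0.34 ± 0.11 (SE, adjusted p = 0.192). PolQ (listed as mus308) encodes polymerase theta, which joins breaks through short matching ends. It was at 8.83, 8.64 and 8.67 in jumu arrays against 8.11, 8.49 and 7.88 in control arrays, a change of 0.55 ± 0.19 (SE, adjusted p = 0.208). The SE of PolQ came mainly from its control arrays, whose SD was 0.31 against 0.10 in jumu arrays.

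Of the classical end joining genes, those of the Ku heterodimer, which binds broken ends, had no overlap and the ligase gene did. Ku80 was at 7.61, 7.37 and 7.45 in jumu arrays against 7.26, 6.70 and 6.44 in control arrays (change 0.68 ± 0.24 SE, adjusted p = 0.230). Irbp, which encodes Ku70, was at 7.76, 7.48 and 7.59 in jumu arrays against 7.46, 7.19 and 7.39 in control arrays (change 0.26 ± 0.13 SE, adjusted p = 0.376). For both genes the highest control array lay close below the lowest jumu array. DNAlig4, which encodes the ligase that seals the ends, was spread over 6.67 to 7.57 in jumu arrays and 6.44 to 7.44 in control arrays, with a change of 0.06 (95% confidence interval -0.89 to 1.01).

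**Figure D2:**
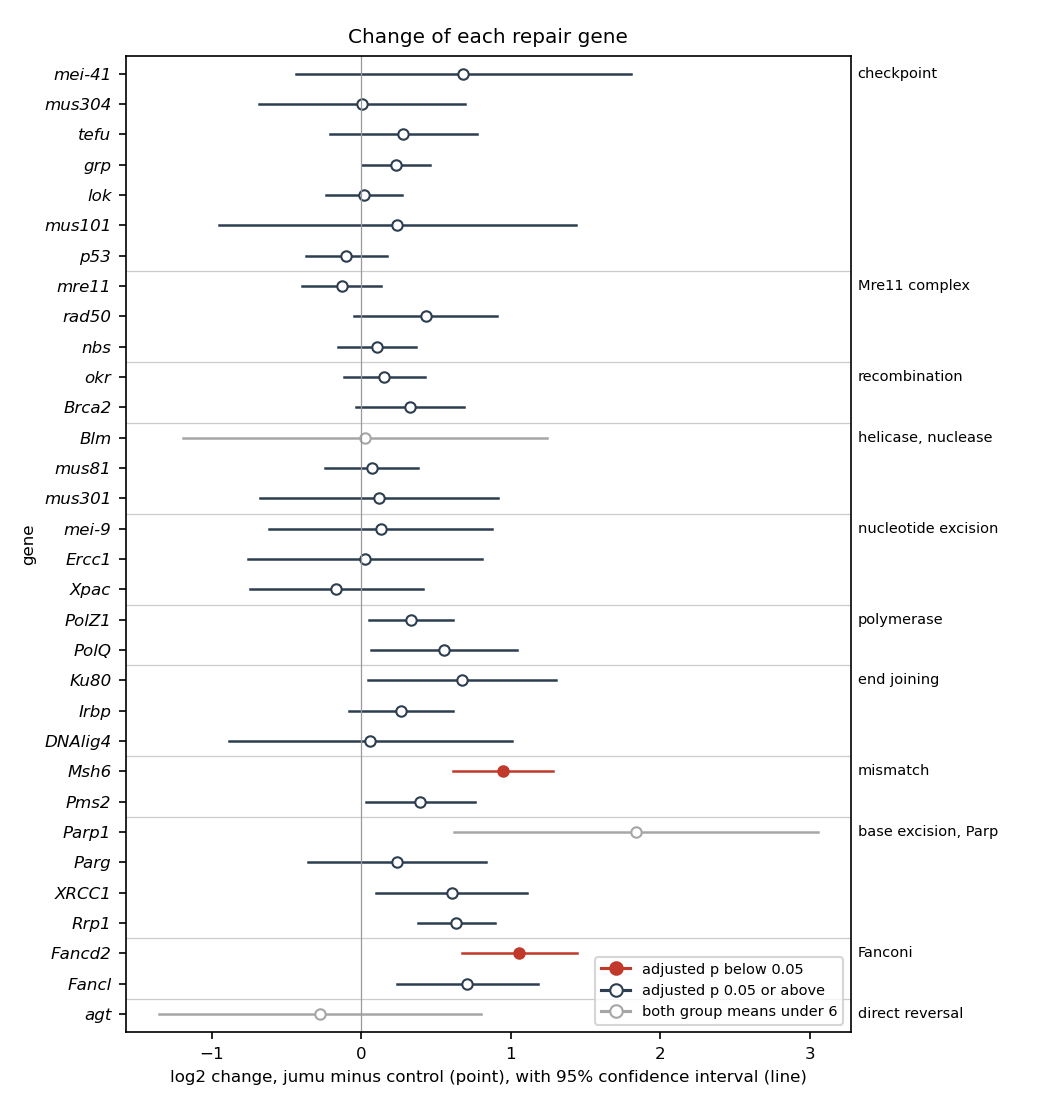
Log2 change of each measured repair gene, jumu minus control (point), with its 95% confidence interval from limma (line), filled red where the adjusted p was under 0.05 and grey where both group means were under 6. Msh6 (0.95) and Fancd2 (1.06) are the 2 filled points, and the intervals of lok, p53, mre11 and nbs lie close around 0.

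Checkpoint genes among the members were nearly level between the groups or too variable to place, except grp, which was slightly higher in every jumu array. In the wider list described below, the checkpoint genes Rad17 and mu2 were also higher in every jumu array, without passing. The change of Rad17 was 0.65 ± 0.16 (SE, adjusted p = 0.116 in limma). Claspin, Rad9, Hus1-like and Rif1 of that list overlapped. The ATM kinase gene tefu was at 7.93, 8.12 and 8.25 in jumu arrays against 7.55, 8.12 and 7.80 in control arrays, with overlap. The ATR kinase gene mei-41 was close to background, at 6.84, 7.10 and 6.34 in jumu arrays against 6.42, 5.25 and 6.57 in control arrays, with a change of 0.68 whose interval ran from -0.44 to 1.80. Without control replicate 2, the lowest array, the change of mei-41 was 0.27. The partner gene mus304, which encodes ATRIP, differed by 0.01 (interval -0.68 to 0.69), and mus101, which encodes the TopBP1 protein that activates ATR, by 0.24 (interval -0.95 to 1.43).

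The checkpoint kinase genes below them were measured more tightly. The Chk1 gene grp had signals of 10.97, 11.00 and 10.95 in jumu arrays against 10.78, 10.73 and 10.72 in control arrays. Every jumu array was higher, by a small margin, and the change of 0.23 ± 0.09 (SE, 1.17-fold) did not pass (adjusted p = 0.252). The other 2 probe sets of grp had changes of the same sign, 0.53 and 0.82, at means of 6.60 in jumu arrays for both, against 6.07 and 5.78 in control arrays. The Chk2 gene lok was at 10.20, 10.19 and 10.14 in jumu arrays against 10.12, 10.10 and 10.26 in control arrays. Its groups overlapped, and the interval of its change, -0.24 to 0.27, leaves room only for small differences in either direction.

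p53, which encodes the transcription factor that drives the response to damage, had the same narrow range. It was at 9.82, 9.87 and 9.83 in jumu arrays against 9.89, 10.07 and 9.85 in control arrays, a change of -0.10 (interval -0.37 to 0.17). A second p53 probe set was far below background level in both groups, at 1.10 in jumu arrays and 2.42 in control arrays. A short list of 8 genes that respond to p53 in flies was read as well, and 4 of them were measured. Of these 4, 0 rose or fell at the adjusted threshold, beside 1.61% of all genes called higher and 1.71% called lower. At an unadjusted p under 0.05 in limma there were 0 higher and 2 lower, beside 10.8% and 11.7% of all genes. All 4 had a negative change, while 48.9% of all genes had a positive one. The cell death gene skl was at 10.52, 10.61 and 10.36 in jumu arrays against 11.13, 11.05 and 11.24 in control arrays (change -0.64 ± 0.12 SE, adjusted p = 0.0700), and the TNF ligand gene egr had a change of -0.47 ± 0.14 (SE, adjusted p = 0.154). Corp and RnrL, at -0.08 and -0.02, overlapped between the groups. With scaling to poly-A controls all 4 turned positive (0.27 for skl) and 2 of them passed, so their direction differs between the scalings described below.

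Among genes of the Mre11 complex, which holds broken ends and starts their resection, rad50 differed from its partners in spread. It was at 8.84, 8.80 and 8.78 in jumu arrays against 8.02, 8.51 and 8.60 in control arrays. The jumu arrays lay above all control arrays, 1 of which was far below the others, and the change of 0.43 ± 0.19 (SE) did not pass (adjusted p = 0.296). Without that array, control replicate 1, the change of rad50 was 0.25 (adjusted p = 0.364). The change of mre11 was -0.13 (interval -0.39 to 0.13) and that of nbs 0.11 (interval -0.15 to 0.37), both with overlap.

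Homologous recombination was represented by okr, the Rad54 gene, and Brca2, whose product acts on single-stranded DNA at breaks. Brca2 was at 7.91, 7.86 and 8.08 in jumu arrays against 7.83, 7.55 and 7.49 in control arrays, a narrow separation with a change of 0.33 ± 0.14 (SE, adjusted p = 0.293). The arrays of okr overlapped, at 8.98, 9.14 and 9.16 in jumu arrays against 9.01, 8.92 and 8.89 in control arrays, with a change of 0.16 (interval -0.11 to 0.42).

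Helicase, nuclease and nucleotide excision genes among the members showed no separation. In the wider list described below, mms4, Gen, Rtel1, WRNexo, slx1 and Fancm were higher in every jumu array, without passing. The change of mms4 was 0.63 ± 0.18 (SE, adjusted p = 0.160 in limma). RecQ4, rec and tos of that list overlapped. Its excision genes Xpc and Xpd were also higher in every jumu array, without passing, while Ssl1, Tfb4, mrn, pic, Tfb1, Mms19 and hay overlapped. The nuclease gene mus81 was at 7.09, 7.12 and 7.07 in jumu arrays against 6.98, 6.89 and 7.20 in control arrays, a change of 0.07 ± 0.12 (SE, adjusted p = 0.821). The helicase gene mus301 had a change of 0.12 (interval -0.68 to 0.92), and Blm, which encodes the fly relative of the Bloom syndrome helicase, was near background at 5.75 in jumu arrays and 5.72 in control arrays. Of the excision genes, Xpac, which encodes the damage-verifying protein XPA, was at 7.97, 8.18 and 8.15 in jumu arrays against 8.39, 7.84 and 8.58 in control arrays, a change of -0.17 ± 0.22 (SE, adjusted p = 0.761). The genes of the paired nuclease subunits, mei-9 (XPF) and Ercc1, differed by 0.13 (interval -0.62 to 0.87) and 0.03 (interval -0.76 to 0.81). The alkyltransferase gene agt, for direct reversal of alkylated bases, was near background in both groups, at 5.75, 5.87 and 5.06 in jumu arrays against 5.28, 5.68 and 6.55 in control arrays, with overlap.

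Repair genes outside this set were read from a wider list of 60 symbols, of which 43 genes had a probe set. Of the 43, 1 rose and 0 fell, beside 1.61% of all genes called higher and 1.71% called lower. A positive change was seen in 30, against 48.9% of all genes, and the median change was 0.20. In 20 of the 43 every jumu array was above every control array. In 1, qjt, every jumu array was below. Over all genes these shares were 16.6% and 17.5%. Both group means were at least 6 for 39 of the 43. Among the 6276 genes with such means, 24.9% had no overlap upward and 26.8% downward, and 2.23% were called higher. The gene that rose was gkt, which encodes the Tdp1 phosphodiesterase that frees DNA ends from trapped topoisomerase. It was at 9.01, 8.83 and 8.61 in jumu arrays against 6.45, 6.96 and 6.87 in control arrays, far apart on both sides, and rose by 2.06 ± 0.19 (SE, adjusted p = 0.0253 in limma), which is 4.16-fold. The call was lost with any 1 array removed (adjusted p 0.0806 to 0.115, log2 change 1.90 to 2.16) and with median centring (log2 change 2.29, adjusted p = 0.0599). A block for replicate number ended it too (adjusted p = 0.238 in limma). It held with hybridization controls (adjusted p = 0.0230 in limma), an unequal-variance test (adjusted p = 0.0408) and the mean over probe sets (adjusted p = 0.0361 in limma). With the intensity trend described below it held whichever array was removed (adjusted p at most 1.68e-05 in limma). A second gkt probe set was called too (8.94 in jumu arrays against 5.72 in control arrays, adjusted p = 0.0121), and its remaining probe set was near background in both groups. Of the 6 nearest measured neighbours of gkt, those with both means at least 6 were Mad, ND-B14.5B, Hydr2 and CG44002, with changes of 0.22, -0.50, -0.01 and 0.55, and none passed.

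The next genes of the wider list by p did not pass with the default variance prior, although none of them overlapped between the groups. SMC6 and SMC5 encode the core of a structural complex that guards chromosomes during recombination. SMC6 was at 9.24, 9.17 and 9.26 in jumu arrays against 8.24, 8.61 and 8.26 in control arrays (change 0.85 ± 0.14 SE, adjusted p = 0.0554). SMC5 had a change of 0.54 ± 0.10 (SE, adjusted p = 0.0720), and its second probe set, whose arrays overlapped, 0.34. CtIP, which encodes a cofactor of end resection, had a change of 0.61 ± 0.11 (SE, adjusted p = 0.0712), dom, a chromatin remodelling ATPase gene, 0.61 ± 0.13 (SE, adjusted p = 0.0868), and Top3alpha, a topoisomerase gene whose product works with Blm, 0.58 ± 0.13 (SE, adjusted p = 0.0983).

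**Figure D3:**
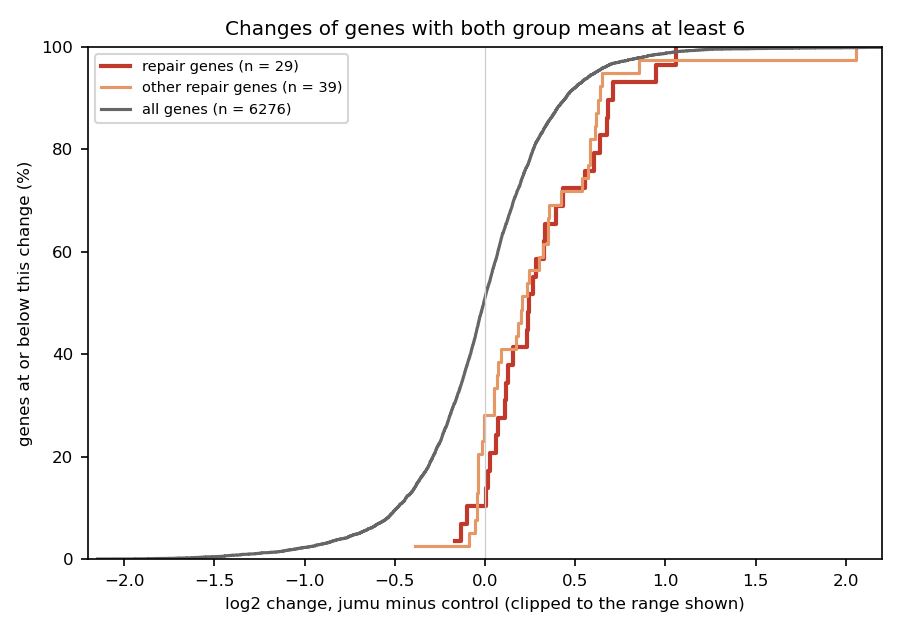
Cumulative share of genes (%) at or below each log2 change, jumu minus control, for the 29 repair genes, 39 further repair genes and all 6276 genes whose group means were both at least 6. Both repair curves lie to the right of the curve of all genes up to about 1 log2 unit, with medians of 0.24 and 0.20 against -0.01.

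Cell cycle genes in the same arrays give a measure for these values. Of 31 measured DNA replication genes 2 rose and 0 fell, with a median change of 0.29 and 26 positive changes. Of 24 mitosis genes 15 rose and 0 fell, with a median change of 0.78 and 23 positive changes. All 31 and all 24 had both group means at least 6. Among the 6276 genes with such means, 2.23% were called higher and 2.88% lower, and 49.0% had a positive change. No test of the difference between these lists and the repair genes was made. With median centring or hybridization controls 0 genes of both cell cycle lists passed, and with poly-A controls 30 replication genes and 24 mitosis genes passed, all higher.

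How the spread is estimated decides how many repair genes pass. The default variance prior pools dim and bright probe sets, and it gave Rrp1 an SE of 0.10, where a prior that follows the intensity gave 0.05. With that intensity trend 8 of the 32 members passed, all higher, namely Msh6, Rrp1, Fancd2, XRCC1, grp, PolQ, Fancl and rad50. With it 10.3% of all genes and 18.1% of the 6276 brighter genes were called higher, and the 8 are 27.6% of the 29 brighter members beside 18.1% (with 0 lower, beside 10.9% of all genes and 19.8% of brighter genes). Of the other lists 13 of 43 wider repair genes, 14 of 31 replication genes and 21 of 24 mitosis genes were then called higher, and 0, 2 and 0 lower. SMC6, SMC5, CtIP, dom and Top3alpha were among them, with adjusted p of at most 0.00256 in limma, and of at most 0.0188 with any 1 array removed. For Msh6, Fancd2 and Rrp1 the trend fit kept an adjusted p of at most 0.000123, 0.000466 and 7.56e-06 whichever 1 array was left out. For Fancl, rad50, PolQ and XRCC1 it did not, with highest values of 0.143, 0.195, 0.0777 and 0.0506, and for grp the highest value was 0.0484.

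The direction of the small changes depends on the scaling between arrays. The spiked controls themselves differed between the groups in the deposited values. Poly-A controls averaged 7.52 to 7.63 in jumu arrays against 8.33 to 8.53 in control arrays. Hybridization controls averaged 12.74 to 13.08 in jumu arrays against 13.30 to 13.63 in control arrays. What made them differ was not tested. Relative to quantile normalization, scaling by the array median, by hybridization controls or by poly-A controls moved the median change of the 6276 brighter genes from -0.01 to 0.26, 0.56 and 0.89, and it moved the members with it. Of the 32 members 31, 31 and 32 then had a positive change, against 28 with quantile normalization and 22 with the values as deposited. The members that passed the test numbered 0, 0 and 22 in those 3 scalings, all 22 higher. The sign was the same in all 5 scalings for 22 members, including the 14 without overlap, and differed for mus304, p53, mre11, Blm, mus81, mus301, Ercc1, Xpac, DNAlig4 and agt. The median of the members lay 0.25 log2 units above that of the brighter genes after quantile normalization and 0.23 above it in the values as deposited. The other 3 scalings add 1 constant per array to the deposited values, so by construction they leave that distance at 0.23.

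**Figure D4:**
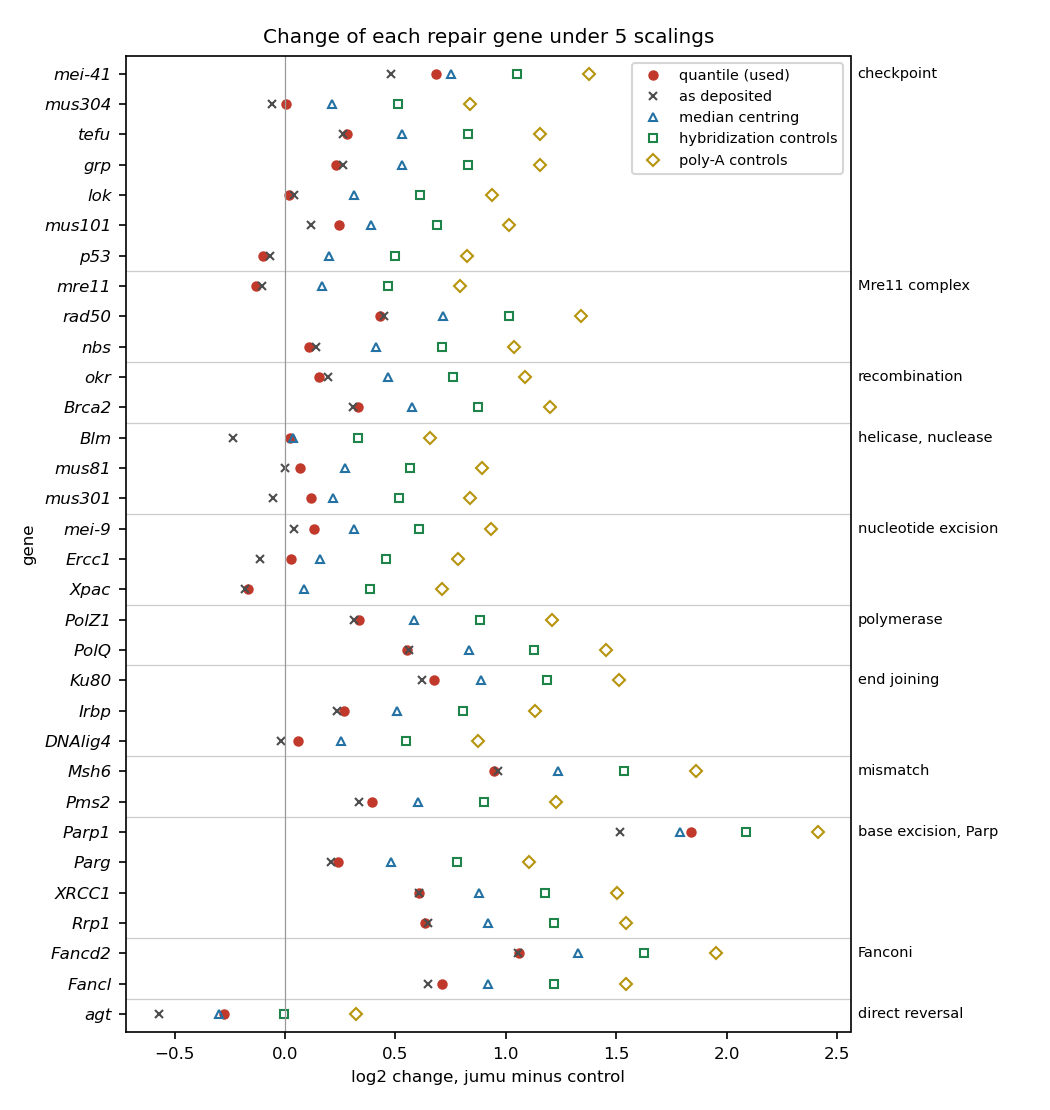
Log2 change of each measured repair gene, jumu minus control, under 5 ways of scaling the arrays (1 symbol per scaling). Values lie to the right of the quantile-normalized ones for all 32 genes with both kinds of spiked control (Msh6 at 1.86 with poly-A controls, where it was 0.95) and for all but Parp1 and agt with median centring, and p53 and mre11 change sign.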

How the data were processed

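Sorted mesodermal cells of 2 genotypes were measured on 6 Affymetrix arrays, 3 per genotype, with groups and replicate numbers from the titles. The authors deposited log2 signals per probe set, made with the Bioconductor package affy per the submitters' processing notes. The version, background correction and normalization are not stated there, and base 2 was inferred from their span. Array medians of the deposited values ran from 5.09 to 5.43 in jumu arrays and from 5.38 to 5.64 in control arrays, so quantile normalization was applied. After 183 Affymetrix control probe sets were left out, 18769 entered a two-sided test of jumu against control in limma 3.58.1 under R 4.3.3 (default eBayes prior, genotype as the sole term), and p-values were adjusted by Benjamini-Hochberg. The script was tested on simulated data. A platform annotation and RefSeq names (Release 6) gave 13647 probe sets 1 gene each. The files name no build and no sequence table was used, so neither coordinates nor sequences are given. Array number limits precision.

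Members and lists were chosen with earlier results of these data known. Full statistics were given, by rule, to members past the threshold, to the smallest p in each repair route, and to further genes of the wider list past the threshold or with its 5 next smallest p; values of other members were added to account for each. Alternatives were other scalings, filters on dim probe sets, other variance priors, array weights, a block for replicate number, an unequal-variance test, the mean over probe sets and leaving out each array. Combinations with the intensity trend were added after seeing the data. Deviations from the group means of same-numbered arrays correlated at -0.01 to 0.01, and the numbers were not taken to pair the samples. This check ran over all probe sets, dim ones included, so it cannot exclude pairing. Some listed genes are not reported here by name.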

Additional observations from a re-analysis of the deposited data

How the results depend on the processing

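Over the alternatives that were run, 0 members and 0 genes of the wider list were called lower. The counts given here are members called higher (2 of 32 in limma), wider repair genes called higher (1 of 43) and all probe sets called in either direction (519 of 18769), in that order. With 1 array left out they were 0, 0 and 0 to 21, and with the intensity trend as well 5 to 8, 9 to 13 and 2532 to 2784. Median centring gave 0, 0 and 20, hybridization controls 0, 1 and 31, poly-A controls 22, 38 and 6924, and an unequal-variance test 1 (grp, with Msh6 and Fancd2 lost), 1 and 453. Leaving out dim probe sets gave 6, 12 and 2580 (at or above the median level) or 10, 17 and 2930 (mean of at least 6). The intensity trend gave 8, 13 and 3096, with robust estimation 8, 13 and 3094, with median centring 9, 17 and 2357, and with a mean of at least 6 it gave 9, 17 and 3378. With the replicate number as a block all 3 counts were 0, and with block and trend 8, 13 and 2955. The labels do not say whether the numbers pair the samples. The members' median change of 0.24 moved to 0.49 with median centring, with or without the trend, 0.79 with hybridization controls and 1.12 with poly-A controls, and ran from 0.22 to 0.28 with 1 array left out.

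Of the members named by rule, 3 changed sign without being called under either setting. The change of mus81 was -0.000304 as deposited. That of Xpac was 0.0874 with median centring, with or without the trend, 0.385 with hybridization controls and 0.711 with poly-A controls. The value for agt, which is no measure of size because both its means are near background, was 0.323 with poly-A controls and ran from -0.557 to 0.0809 with 1 array left out, the highest without control replicate 3, with or without the trend. Combinations with the trend were chosen after seeing the data, and the cause was not tested for any of these shifts.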
